A study of Mus musculus with 12 samples.

Results

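Expression of 8 mouse germline genes was followed from fibroblasts to pluripotent cells. The genes were Mael, Sycp3, Stag3, Tex11, Taf7l, Hormad1, Dazl and Ddx4, found by symbol in the annotation of the array. They were chosen with earlier results of these data known, so their counts are not those of genes picked blind to the values. Each had 1 probe set, so they were 8 of the 9539 genes that could be tested from the table's 10360 probe sets. The genes belong to a class known for silencing by promoter DNA methylation in body cells, but methylation itself was not measured in these samples.

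Germline genes of this class carry CpG-rich promoters that are methylated around implantation and stay methylated in somatic cells. In mouse embryonic stem cells they are held down in addition by the Polycomb complex PRC1.6, which the factors Mga and Max bring to an E-box, the sequence CACGTG, and by the DNA-binding protein E2f6. Primordial germ cells lose the methylation and switch the genes on before meiosis. Tet1, an enzyme that oxidises 5-methylcytosine, is known to take part in the activation of meiotic genes there.

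The study compared 4 groups of 3 arrays, 12 in all. Fibroblasts at passage 3 carried OG2-GFP, a reporter of the Oct4 gene, and the doxycycline-dependent activator Rosa26-M2rtTA. The activator's name reads M2rtTA, M3rtTA and M4rtTA in the labels of fibroblast replicates 1, 2 and 3. Day-1 cells were fibroblasts at passage 3 grown from mice made from Oct4 and Tet1 (OT) iPS cells, of the same strain label, kept for 1 day in ES cell medium with doxycycline. OT-iPS cells at passage 10 came from a single line, OT#b, induced with Oct4 and Tet1 and of the same strain label. R1 embryonic stem (ES) cells at passage 20 came from strain 129, so cell type and strain cannot be told apart between the pluripotent groups. Both pluripotent lines grew with LIF on mitomycin C-treated embryonic fibroblast feeders, and a plating step to remove feeders was stated for the ES cells only. Nothing in the labels says that replicates were separate cultures, so p-values measure the spread between these samples, which may be technical.

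Values were on a log2 scale and ran from 2.43 to 13.64. Array medians over genes were 8.27 to 8.32 in fibroblasts, 8.28 to 8.31 after 1 day, 7.99 to 8.08 in iPS cells and 7.91 to 7.98 in ES cells. Pou5f1 (Oct4) averaged 5.04 in fibroblasts, 11.79 after 1 day, 12.01 in iPS cells and 12.36 in ES cells. The mean of 14 markers of pluripotent cells was 5.66 to 5.87, 6.30 to 6.35, 11.22 to 11.26 and 11.39 to 11.51 on the arrays of those groups. No probe set spanned less than 0.51 over the 12 arrays, so the table may have been filtered on variation. Counts of members that differed from fibroblasts therefore describe these 8 genes and not the share of germline genes that rise. All 8 members lay in the lowest 25% of genes by mean level. Whether their fibroblast and day-1 levels were above background was not tested, so a fold against those groups is the ratio of the measured values and may understate the change in RNA, and folds of different genes are not ranked. In bulk RNA, fewer cells that express a gene and less RNA per cell cannot be told apart.

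Promoters of 7 of the 8 members, all but Tex11, were read as the 250 bases before the RefSeq start in build GRCm38.p6. The 7 windows held 12 to 31 CpGs. Counts were 12 for Sycp3, 14 for Taf7l, 18 for Mael, 19 for Hormad1, 20 for Dazl, 26 for Stag3 and 31 for Ddx4. The median was 6 over 27025 promoters and 16 over the 7533 genes of the value table that had one, so 5 of the 7 members were above the latter. The E-box CACGTG, which contains a CpG and reads the same on both strands, was present in 6 of 7, all but Dazl. It was present in 6.05% of all promoters and in 8.28% of those of genes in the value table. GCGGGA or its reverse complement TCCCGC, the core of the E2f6 motif, was found in Mael, Sycp3, Hormad1 and Ddx4, 4 of 7, beside 30.6% of genes in the value table. These matches describe the letters in the windows; no factor's binding was measured.

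Windows of 60 bases around the E-box, capitals marking CACGTG, are shown for 4 members because this short sequence recurs across genes with otherwise different promoters. They lie at 1:166238935-166238994 (minus strand) for Mael, 10:88459496-88459555 (plus) for Sycp3, X:134476507-134476566 (minus) for Taf7l and 3:95559593-95559652 (plus) for Hormad1.
Mael: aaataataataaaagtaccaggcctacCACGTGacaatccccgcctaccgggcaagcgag
Sycp3: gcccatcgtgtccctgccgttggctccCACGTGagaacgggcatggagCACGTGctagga
Taf7l: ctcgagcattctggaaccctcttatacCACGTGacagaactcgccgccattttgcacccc
Hormad1: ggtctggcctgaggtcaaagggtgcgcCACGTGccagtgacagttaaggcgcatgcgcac

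For Stag3, Ddx4 and Taf7l the start used lies inside the annotated span of the gene. No sequence is shown for Stag3 and Ddx4, and the Taf7l window above lies just upstream of the span. Sycp3 held the E-box at 64 and 43 bases before its start and Hormad1 at 57 and 20 bases. Dazl, the member without one, is shown whole (17:50293621-50293870, minus strand) with its 20 CpGs in capitals.
Dazl: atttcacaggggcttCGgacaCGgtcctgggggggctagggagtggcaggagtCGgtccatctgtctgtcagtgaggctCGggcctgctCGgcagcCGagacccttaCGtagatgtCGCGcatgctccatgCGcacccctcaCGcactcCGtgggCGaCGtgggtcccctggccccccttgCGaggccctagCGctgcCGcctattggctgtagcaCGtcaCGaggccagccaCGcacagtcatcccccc

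**Figure D1:**
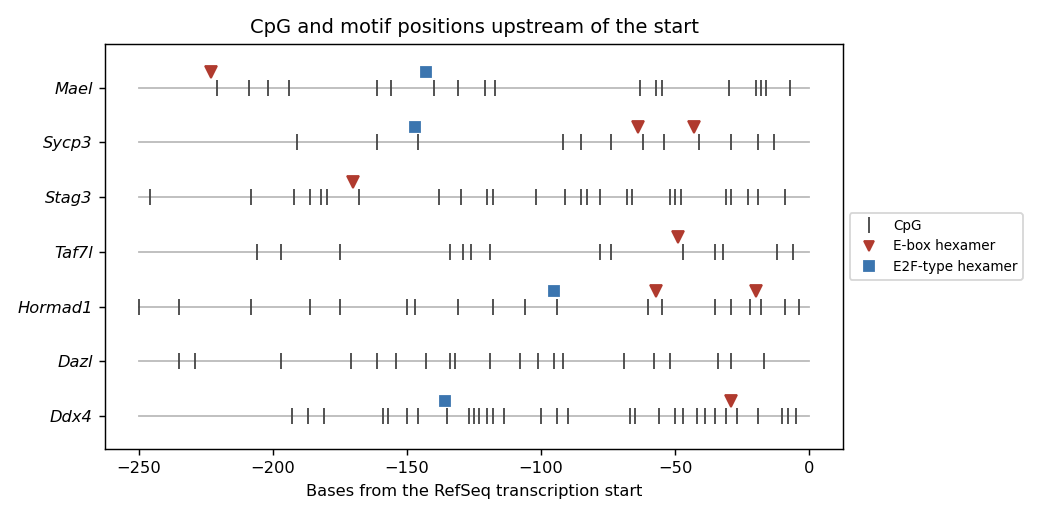
Positions of CpGs (ticks), the E-box hexamer (triangles) and GCGGGA or its reverse complement (squares) along the 250 bases before the RefSeq start of 7 members, with the x axis in bases from the start. Every member but Dazl has at least 1 triangle, and ticks are densest in Ddx4 and Stag3.

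The meiotic chromosome genes come first. Sycp3 encodes a protein of the lateral elements of the synaptonemal complex, which holds paired chromosomes together. Its log2 levels were 3.79, 3.55 and 3.94 in fibroblasts, 3.57, 3.66 and 3.91 in day-1 cells, 5.94, 5.97 and 6.12 in iPS cells, and 7.48, 7.91 and 7.85 in ES cells. The fibroblast and day-1 arrays overlapped, every iPS array was above them, and every ES array was above every iPS array. Stag3, a meiosis-specific subunit of the cohesin ring, read 5.48, 5.97 and 6.11 in fibroblasts, 5.53, 5.37 and 5.62 in day-1 cells, 7.31, 7.19 and 7.17 in iPS cells, and 9.11, 9.34 and 9.06 in ES cells. It showed the same 3 steps without overlap between them. Tex11, an X-linked gene needed for crossover formation, read 3.95, 4.08 and 3.94 in fibroblasts, 4.32, 4.08 and 4.05 in day-1 cells, 5.95, 5.75 and 5.31 in iPS cells, and 6.72, 7.77 and 6.86 in ES cells. Its ES arrays were all higher than its iPS arrays, and ES replicate 2 was the highest of them.

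Hormad1 marks unpaired chromosome axes in meiosis. It read 3.17, 3.46 and 3.23 in fibroblasts, 3.43, 3.14 and 3.26 in day-1 cells, 6.58, 6.30 and 5.84 in iPS cells, and 5.28, 6.23 and 6.45 in ES cells. Both pluripotent groups were clear of the fibroblasts, but they overlapped each other. The probe set's ID neighbours were probe sets of Phf14 and Tmem106b, genes on chromosome 6, whereas Hormad1 itself lies on chromosome 3. Which sequence the Hormad1 probe set reads is therefore not known here.

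Mael and Ddx4 act in the germ granule, where piRNAs are made against transposons, and Ddx4 (Vasa) is an RNA helicase used as a germ cell marker. Mael read 3.87, 3.60 and 3.92 in fibroblasts, 4.19, 4.06 and 3.88 in day-1 cells, 5.82, 5.86 and 5.87 in iPS cells, and 7.73, 7.97 and 7.71 in ES cells. It rose in steps like those of Sycp3. Ddx4 read 4.83, 4.97 and 4.84 in fibroblasts, 5.13, 4.95 and 4.77 in day-1 cells, 7.27, 7.17 and 7.22 in iPS cells, and 7.59, 8.20 and 7.51 in ES cells. Its pluripotent groups lay close together, though all ES arrays were above all iPS arrays.

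Dazl encodes an RNA-binding protein that promotes translation in germ cells. It read 4.93, 5.03 and 4.67 in fibroblasts, 4.78, 4.80 and 4.95 in day-1 cells, 7.32, 7.12 and 7.35 in iPS cells, and 7.35, 8.02 and 6.91 in ES cells. The iPS values fell inside the range of the ES values. Taf7l, an X-linked germline counterpart of the TFIID subunit Taf7, read 4.35, 4.12 and 4.65 in fibroblasts, 4.39, 4.32 and 4.18 in day-1 cells, 4.78, 4.80 and 4.70 in iPS cells, and 5.68, 6.56 and 6.07 in ES cells. It was the member whose iPS level stayed nearest to the fibroblast level.

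**Figure D2:**
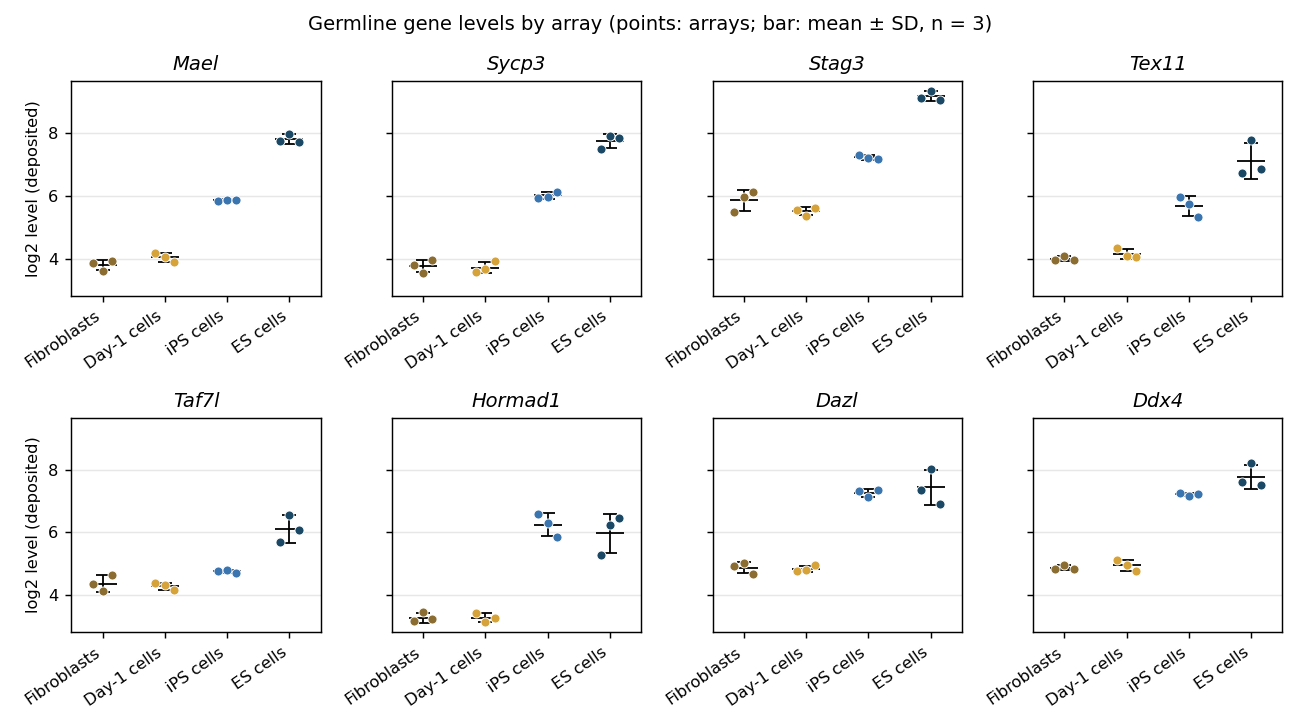
Deposited log2 level (y axis) of each gene on each of the 12 arrays (points) by group (x axis), with the mean and SD of 3 arrays as bars. Fibroblasts and day-1 cells overlap for every gene, and the iPS arrays sit below the ES arrays for all genes but Hormad1 and Dazl. The level of a probe set should be compared between groups and not between genes.

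In day-1 cells the 8 genes lay near their fibroblast levels, whereas Pou5f1 was 6.76 log2 units higher than in fibroblasts. None of the 8 members was called different between day-1 cells and fibroblasts by limma (Benjamini-Hochberg adjusted p under 0.05 and at least a 2-fold change), beside 7.79% of 9539 genes. At an unadjusted p under 0.05 there were 2, one in each direction, beside 61.5% of all genes. These were Mael, at 0.25 ± 0.10 (log2 difference ± SE, 95% interval 0.02 to 0.47, adjusted p = 0.062), and Stag3, at -0.34 ± 0.14 (-0.64 to -0.04, adjusted p = 0.05, just short of the threshold). Over the alternative settings the adjusted p ran from 0.029 to 0.26 for Mael and from 0.0012 to 0.22 for Stag3, with no difference reaching 2-fold. Leaving out fibroblast replicate 2 brought Mael to 0.15, and leaving out fibroblast replicate 1 or 3 brought Stag3 to -0.53 or -0.21. The other differences ran from -0.08 for Taf7l to 0.16 for Tex11. Every member's 2 groups overlapped, and the widest of the intervals, -0.55 to 0.54 for Hormad1, stayed within a 2-fold change either way. Tet1 itself was 0.79 ± 0.09 higher in day-1 cells (adjusted p = 8.4e-06), a rise of under 2-fold; whether the probe set reads the introduced copy is not known here.

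In OT-iPS cells, 7 of the 8 genes were called higher than in fibroblasts, beside 21.8% of all genes. Hormad1 rose 7.77-fold (log2 difference 2.96 ± 0.25, adjusted p = 8.3e-08), Dazl 5.21-fold (2.38 ± 0.21, 9.7e-08) and Ddx4 5.06-fold (2.34 ± 0.15, 4.7e-09). Sycp3 rose 4.75-fold (2.25 ± 0.13), Mael 4.15-fold (2.05 ± 0.10), Tex11 3.21-fold (1.68 ± 0.23) and Stag3 2.59-fold (1.37 ± 0.14), with adjusted p of at most 8.9e-06. Taf7l was 0.39 ± 0.18 higher, 1.31-fold, and did not pass (adjusted p = 0.054), although its 3 iPS arrays were above its 3 fibroblast arrays. Over the alternative settings its adjusted p ran from 0.0028 to 0.21, and the difference never reached 2-fold. All 8 members had groups that did not overlap in this direction, as did 41.9% of all genes. The members' median difference was 2.15, against -0.35 over all genes.

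In R1 ES cells all 8 genes were called higher than in fibroblasts, beside 23.4% of all genes. Mael rose 16.1-fold (4.01 ± 0.10, adjusted p = 8.7e-13), Sycp3 15.8-fold (3.99 ± 0.13) and Stag3 9.95-fold (3.31 ± 0.14). Tex11 rose 8.71-fold (3.12 ± 0.23), Ddx4 7.40-fold (2.89 ± 0.15), Hormad1 6.50-fold (2.70 ± 0.25), Dazl 5.86-fold (2.55 ± 0.21) and Taf7l 3.33-fold (1.73 ± 0.18, 6e-07). The members' median was 3.01, against -0.35 over all genes. The iPS and ES comparisons share the fibroblast arrays. Against day-1 cells, which are other arrays, 7 of 8 were called higher in iPS cells (17.6% of all genes) and 8 of 8 in ES cells (20.4%). The exception was again Taf7l in iPS cells, at 0.47 ± 0.18 (adjusted p = 0.025, under 2-fold).

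The pluripotent lines differed from each other by gene. Mael, Stag3, Sycp3, Tex11 and Taf7l were called lower in OT-iPS than in R1 ES cells, 5 of 8 members, beside 2.45% of all genes called lower and 6.90% called in either direction. Mael was 3.89-fold lower (log2 difference -1.96 ± 0.10, 95% interval -2.19 to -1.73, adjusted p = 2.4e-08) and Stag3 3.85-fold lower (-1.94 ± 0.14, -2.25 to -1.64, 2.2e-07). Sycp3 was 3.33-fold lower (-1.74 ± 0.13, -2.02 to -1.46, 3.1e-07). Tex11 was 2.71-fold lower (-1.44 ± 0.23, -1.93 to -0.95, 0.00015) and Taf7l 2.54-fold lower (-1.35 ± 0.18, -1.74 to -0.96, 3.9e-05). These 5 genes had no overlap between the iPS and the ES arrays.

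Ddx4, Dazl and Hormad1 were not called. Ddx4 was 1.46-fold lower in iPS cells (-0.55 ± 0.15, -0.88 to -0.22, adjusted p = 0.0072), a difference past the p threshold (as were 57.7% of all genes) but under 2-fold, with no overlap between arrays. Leaving out ES replicate 2 brought it to -0.33. Dazl differed by -0.17 ± 0.21 (-0.62 to 0.28, adjusted p = 0.51) and Hormad1 by 0.26 ± 0.25 (-0.29 to 0.80, 0.40), intervals that hold no 2-fold change but do not show that the levels are equal. Without ES replicate 2 the sign for Dazl turned, to 0.13, and without ES replicate 1 that for Hormad1 turned, to -0.10. Over the 8 members, 6 had iPS arrays entirely below the ES arrays, as did 30.1% of all genes, and the median difference was -1.39 against 0.01 over all genes.

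As a share of the measured log2 difference between fibroblasts and ES cells, iPS cells had covered 22.4% for Taf7l, whose iPS level did not pass against fibroblasts, 41.3% for Stag3, 51.1% for Mael, 53.9% for Tex11 and 56.4% for Sycp3, against 80.9% for Ddx4, 93.4% for Dazl and 110% for Hormad1. These shares take the fibroblast level as their base, whether or not it is background.

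**Figure D3:**
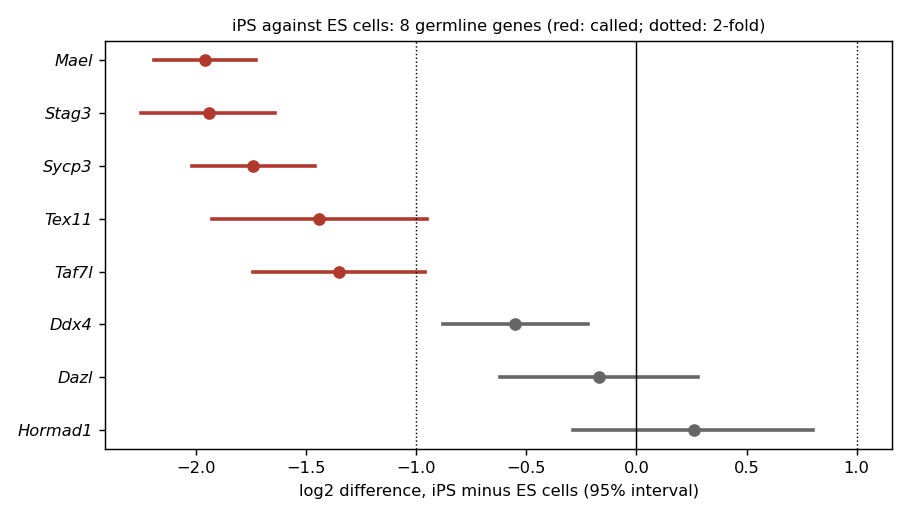
Log2 difference of iPS minus ES cells (x axis) for each gene, with the 95% interval of the limma fit as a line and dotted lines at a 2-fold change. The 5 called genes, in red, range from -1.96 for Mael to -1.35 for Taf7l, and the intervals of Dazl and Hormad1 cross 0.

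Markers of fibroblasts and feeders moved with this comparison. All 18 listed markers were measured, and no value of the table is 0. Their mean level was 11.41 to 11.62 on fibroblast arrays, 11.15 to 11.22 on day-1, 9.11 to 9.22 on iPS and 8.02 to 8.42 on ES arrays. In iPS against ES cells 7 of the 18 were called higher, beside 4.44% of all genes, led by Lox (3.03 ± 0.27), Acta2 (2.82 ± 0.20), Postn (2.74 ± 0.24) and Col1a2 (2.60 ± 0.12), while Dcn, a proteoglycan, was called lower (-2.08 ± 0.12). Among the 14 markers of pluripotent cells, Tfcp2l1 was called higher and Zfp42 lower, beside 4.44% and 2.45% of all genes. The part of fibroblast RNA in the members' differences was not tested.

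The 8 members varied more between arrays than all genes did in every group but iPS cells, and most in ES cells. All genes were not matched to the members' low level here. The median SD of the 8 members was 0.41 in ES cells, against 0.11 over all genes, and 0.09 in iPS cells, against 0.09. It was 0.18 in fibroblasts, against 0.10, and 0.14 in day-1 cells, against 0.07. On ES replicate 2 all 8 members were above their group mean and 7 were at their highest, Hormad1 being the exception. Of all genes, 41.9% were highest on that array. The members' median deviation there was 0.34, against 0.02 for all genes, and on ES replicate 1 none of the 8 was above its mean. The mean of the 8 genes was 7.12, 7.75 and 7.30 on the ES arrays, all above the iPS arrays at 6.37, 6.27 and 6.20. The same array had the highest fibroblast marker mean, 8.42 against 8.02 and 8.04, and the highest pluripotency marker mean, 11.51 against 11.39 and 11.42. The 3 measured markers of 2-cell-like cells, a rare state in ES cell cultures, stood further apart, with a mean of 5.45 on ES replicate 2 against 4.57 and 4.62 on the other ES arrays and 5.31 to 5.52 on the iPS arrays. Tdpoz3 among them read 5.87 against 4.22 and 3.96. The part of these marker lists in the members' levels on that array was not tested. Among 43 other germline genes, 18 were highest on it, 11 on replicate 1 and 14 on replicate 3, near the shares of all genes (41.9%, 26.1% and 32.1%). The part of this array in the comparison was measured by leaving it out: the same 5 genes were called, with differences of -1.88 for Mael, -1.86 for Stag3, -1.66 for Sycp3, -1.12 for Taf7l and -1.11 for Tex11.

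**Figure D4:**
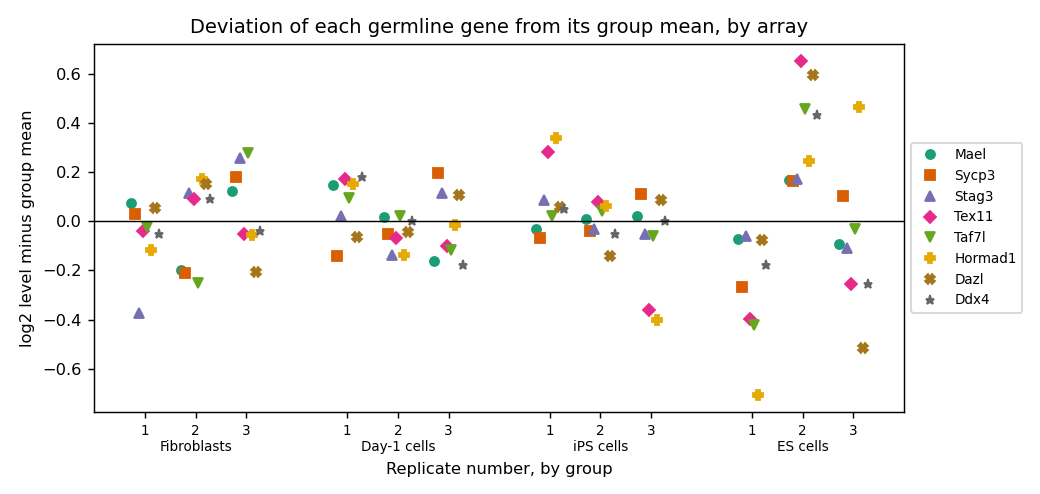
Log2 level of each gene minus its group mean (y axis) on each array (x axis, replicate numbers within groups), 1 symbol per gene. All 8 genes lie above 0 on ES replicate 2 and none on ES replicate 1.

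Other germline genes were taken from lists of meiotic chromosome genes, piRNA and transposon defence genes and further genes known to respond to loss of DNA methylation, and 43 of the 94 were measured. The table may have been filtered on variation. A gene low in fibroblasts may then be measured only because it is high in another group. Counts for these and the later lists therefore describe the measured genes, not the share of listed genes that rise. In day-1 cells Trip13, a meiotic and mitotic checkpoint ATPase, was called higher (1.26 ± 0.07), and Tdrd7, a Tudor protein of germ granules, lower (-1.16 ± 0.23), beside 3.46% and 4.33% of all genes. In iPS cells 26 were called higher than in fibroblasts and 2 lower, beside 21.8% and 29.6% of all genes, with a median difference of 1.46. In ES cells 31 were called higher and 2 lower, beside 23.4% and 32.1%, with a median of 1.61. The higher ones in iPS cells were 12 of 15 meiotic genes, including Hsf2bp (5.05) and Tex15 (2.82). They also held 5 of 15 piRNA genes, including Tdrd12 (6.38) and Rnf17 (2.66), and 9 of 13 further genes, including Dppa4 (5.82), Dppa2 (5.14) and Dnmt3l (4.71). The latter 3 are active in pluripotent cells, so the lists do not hold germ cell genes alone.

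Between iPS and ES cells these 43 genes moved both ways. Meioc (-1.66 ± 0.14), which keeps germ cells in meiotic prophase, Usp26 (-1.62 ± 0.15), Syce1 (-1.6 ± 0.15), of the synaptonemal complex, and Mov10l1 (-1.32 ± 0.14), a piRNA helicase, were called lower in iPS cells. Tex15 (1.6 ± 0.13), Hormad2 (1.41 ± 0.12) and Tdrd12 (1.36 ± 0.14) were called higher. That is 4 lower and 3 higher of 43, beside 2.45% and 4.44% of all genes, and the median was -0.31. By adjusted p alone, 22 were lower and 7 higher, beside 27.7% and 30.0% of all genes. Hormad1, of the same family as Hormad2, was not called (0.26 ± 0.25). Its iPS and ES arrays overlapped, and its sign turned to -0.10 without ES replicate 1. What the Hormad1 probe set reads is not known here, so the 2 genes are not compared.

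Repressors of germline genes were measured in the same cells. Of the PRC1.6 list 11 of 14 genes were measured. None was called in day-1 cells (9 of 11 had an unadjusted p under 0.05, beside 61.5% of all genes) or between iPS and ES cells (7 of 11, beside 62.1%). In iPS against fibroblasts 5 were called higher, among them L3mbtl2 (2.81), Wdr5 (2.13) and Pcgf6 (1.30), and Yaf2 was called lower, beside 21.8% and 29.6% of all genes. E2f6 was 0.57 lower in iPS cells than in fibroblasts, which is under 2-fold. Mga, which binds the E-box with Max, averaged 9.02 in fibroblasts, 8.53 after 1 day and 10.67 in ES cells, and iPS cells lay 0.97 ± 0.08 above fibroblasts and below ES cells (-0.68 ± 0.08, adjusted p = 1.3e-05). Of 10 measured genes listed under H3K9 methylation, 5 (Zfp42, Suv39h2, Cbx1, Trim28 and Morc3) were called higher in iPS cells than in fibroblasts, beside the same 21.8%. Setdb1, which methylates H3K9, averaged 8.84, 8.86, 9.77 and 10.28 in the same order of groups. Zfp42, a zinc finger protein listed there and among the pluripotency markers, was the one called between iPS and ES cells (8.60 against 11.37, -2.77 ± 0.16, 4.6e-08).

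Of 11 measured genes of DNA methylation, 8 were called higher and 2 lower in iPS cells than in fibroblasts, beside 21.8% and 29.6% of all genes. The numbers were the same in ES cells, beside 23.4% and 32.1%. The maintenance enzyme Dnmt1 averaged 8.97 in fibroblasts, 9.80 after 1 day, 10.41 in iPS cells and 10.76 in ES cells. The de novo enzyme Dnmt3b averaged 5.92, 6.18, 9.43 and 10.08, and Dnmt3a 6.97, 7.06, 8.44 and 9.39. In day-1 cells Cdca7 (1.63 ± 0.15) and Uhrf1, which brings Dnmt1 to replicating DNA (1.38 ± 0.12), were called higher, beside 3.46% of all genes. None of the 11 was called between iPS and ES cells (6 had an unadjusted p under 0.05, beside 62.1% of all genes), the difference for Dnmt3a being -0.96 ± 0.09 (adjusted p = 2.6e-06).

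Tet1 averaged 6.68 in fibroblasts, 7.46 after 1 day, 10.25 in iPS cells and 11.36 in ES cells. It was called lower in iPS than in ES cells (-1.11 ± 0.09, adjusted p = 5e-07). The iPS line had been made with Tet1, but whether the probe set reads the introduced copy is not known here. Tet2 averaged 7.80, 6.92, 9.14 and 10.03 (iPS against ES -0.89 ± 0.15, 0.00028), and Tet3 7.75, 7.86, 6.30 and 6.25. Of 10 measured genes of DNA demethylation, 4 (Tet1, Dppa3, Tet2 and Gadd45a) were called higher and 2 (Tet3 and Apobec1) lower in iPS cells than in fibroblasts. Over all genes 21.8% were called higher and 29.6% lower, and the list's median difference was 0.08. In ES cells 4 were called higher and 3 lower, beside 23.4% and 32.1% of all genes, with a median of 0.27. Within this list Gadd45g and Gadd45b were called higher and Gadd45a and Tet1 lower in iPS than in ES cells, beside 4.44% and 2.45% of all genes. Of 13 measured genes listed as regulators of germline genes, none was called in day-1 cells (5 had an unadjusted p under 0.05, beside 61.5% of all genes). In iPS cells 4 (Tfap2c, Prdm14, Rfx2 and Sohlh2) were called higher than in fibroblasts and 2 lower, beside 21.8% and 29.6% of all genes. In ES cells 6 (Tfap2c, Sohlh2, Prdm14, Rfx2, Stra8 and Cyp26a1) were called higher and 1 (Mitf) lower, beside 23.4% and 32.1%. In iPS against ES cells the retinoic acid receptor Rarg was called lower (-1.90 ± 0.07) and Mitf higher (1.01 ± 0.09), beside 2.45% and 4.44% of all genes.

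**Figure D5:**
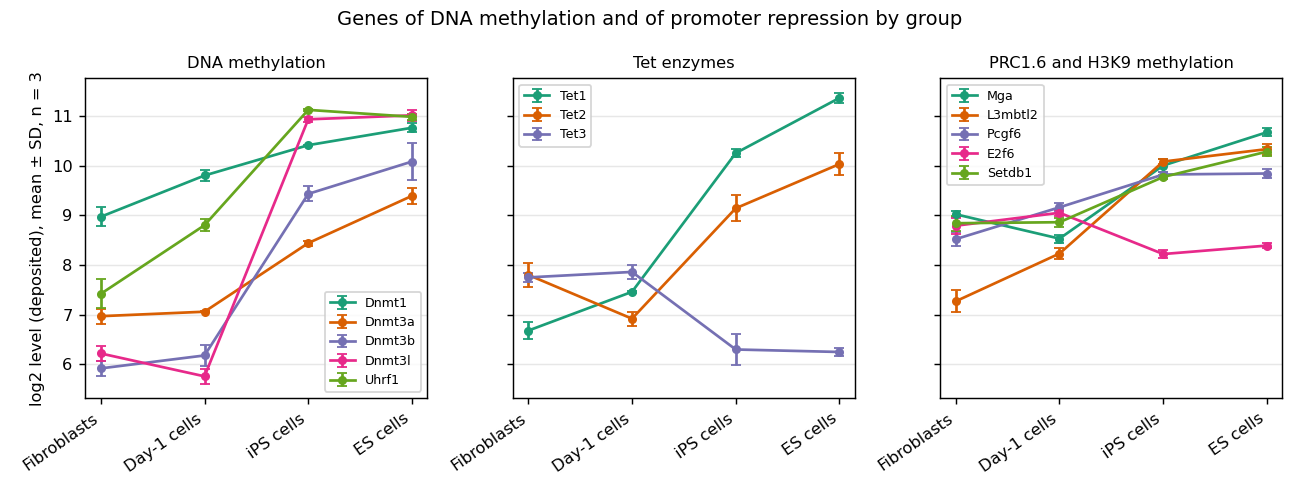
Mean log2 level (y axis, ± SD, n = 3 arrays) of genes of DNA methylation, Tet enzymes and promoter repressors by group (x axis), with lines joining the means of a gene. Tet1 and Dnmt3b are above their fibroblast level in both pluripotent groups, and Tet3 is below it. Levels should not be compared between genes.

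Of 8 measured markers of primordial germ cells, 5 (Kit, Alpl, Tfap2c, Prdm14 and Dppa3) were called higher and 2 (Ifitm3 and Itgb3) lower in iPS and in ES cells than in fibroblasts. Over all genes, 21.8% were called higher and 29.6% lower in iPS cells, and 23.4% and 32.1% in ES cells. None of the 8 was called between iPS and ES cells (5 had an unadjusted p under 0.05, beside 62.1% of all genes). Several of these genes are also active in pluripotent cells. Of the listed markers of spermatogenic cells 6 of 20 were measured, of oocytes 2 of 12 and of 2-cell-like cells 3 of 14. In iPS against fibroblasts Kit, Uchl1 and Id4 were called higher and Gfra1 lower among the first, Zp3 higher among the second, and Usp17lc and Tdpoz3 higher among the third. Between iPS and ES cells Id4 and Usp17lc were called higher in iPS cells, beside 4.44% of all genes. No oocyte marker was called there by limma (both measured ones had an unadjusted p under 0.05, beside 62.1% of all genes).

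The members resembled each other in pattern to different degrees. Over the 12 arrays, Pearson's r between members ran from 0.697 for Taf7l and Hormad1 to 0.991 for Mael and Sycp3. It was 0.987 for Dazl and Ddx4, 0.981 for Mael and Stag3 and 0.95 for Hormad1 and Dazl. The arrays share 4 groups, so such values mostly describe the group means, and no p is given. Similar profiles were sought among genes outside the 8, with unnamed gene models such as Gm and Rik symbols left out of ranks and counts. Nearest to the mean of the 8 genes were Eif4e (0.997), Ppm1j (0.997), Eomes (0.996), Mir19a (0.995) and Uspl1 (0.995). Of the genes searched, 965 had an r above 0.95. Nearest to single members were Srbd1 and Dnttip2 for Mael (0.996 and 0.995), Zfp42 and Ltn1 for Sycp3 (0.997 and 0.996), Kdm6a and Rev1 for Stag3 (both 0.994) and Exoc6 and Dpep2 for Tex11 (0.987 and 0.986). For Taf7l they were Bdh2 and Clgn (0.976 and 0.975), for Hormad1 Dazap1 and Fnta (0.991 and 0.986), for Dazl Zfp296 and Slc15a1 (0.994 and 0.991) and for Ddx4 Aimp1 and Kpna1 (0.998 and 0.996). Taf7l, with 15 genes above 0.95, had the fewest such neighbours of the 8 members, and Ddx4, with 1284, the most.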

How the data were processed

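RNA of 12 samples was labelled with biotin (WT Terminal Labeling Kit, per the labels' protocols) and hybridised to Affymetrix arrays. The authors deposited 1 table of values on a log2 scale, taken as log2 from their range of 2.43 to 13.64; normalization, software and build are not given in the sources used here. Of 10360 probe sets, 9542 had 1 gene symbol in the platform annotation, 344 several and 474 none. For 3 genes with several probe sets the one with the highest mean was kept, leaving 9539 genes. Of their gene IDs, 9530 are in the current gene table.

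Group means were fitted over all 12 arrays with limma 3.58.1 (lmFit, eBayes; R 4.3.3), with Benjamini-Hochberg adjustment over all genes in each of 6 comparisons. A call needed an adjusted p under 0.05 and a 2-fold difference. A fold is 2 to the power of the log2 difference of means. The script was tested on simulated data. Precision is limited by the 3 arrays a group.

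The members and gene lists were chosen with earlier results of these data known. All 8 members are named, up to 6 called genes of the other germline lists, up to 4 of each other list and the most similar profiles. The single writers, Tet enzymes and repressors described beyond that rule were named for their known role after their values were seen. Promoters are from RefSeq (GRCm38.p6) and were searched on both strands, and of the 2 starts of Hormad1 the one listed first was used. Settings varied are given in the closing section. Tables and figures were made with Python 3.11.15, pandas 2.3.3, numpy 2.4.6 and matplotlib 3.10.9.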

Additional observations from a re-analysis of the deposited data

How the results depend on the processing

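The count of members called was recomputed in 6 comparisons under 21 other settings, 126 counts, and 122 equalled the reported ones. Some of these counts could hardly change. Each member has 1 probe set, so averaging the probe sets of a gene alters no member's value. Leaving out an array of a group outside a comparison leaves its differences as they are and alters only the estimated spread. A test against a 2-fold minimum (treat) left 3 members lower in iPS than in ES cells, Mael, Stag3 and Sycp3, in place of 5, and 6 in place of 7 in iPS against day-1 cells. With no fold minimum these counts were 6 and 8. Without any single array the counts stayed at 0, 7, 8, 5, 7 and 8. The signs of small differences turned. In day-1 cells against fibroblasts, quantile normalization gave 0.02 for Sycp3 and 0.09 for Hormad1. Leaving out single arrays gave ranges of 0.15 to 0.33 for Mael, -0.53 to -0.21 for Stag3, -0.15 to 0.04 for Sycp3, -0.20 to 0.06 for Taf7l, -0.08 to 0.08 for Hormad1, -0.14 to 0.04 for Dazl and -0.01 to 0.17 for Ddx4. In iPS against ES cells it gave -0.43 to 0.13 for Dazl and -0.10 to 0.49 for Hormad1. The filter that leaves out the lowest 25% of genes removes every member and gives no value. Centring the arrays moved the median of all genes in iPS against fibroblasts from -0.35 to -0.10, and in ES cells from -0.35 to 0. The share of calls that were higher in iPS cells than in fibroblasts moved from 42.4% to 55.9%, in ES cells than in fibroblasts from 42.2% to 58.7%, in iPS than in ES cells from 64.4% to 51.4%, in iPS than in day-1 cells from 39.8% to 55.3% and in ES than in day-1 cells from 40.9% to 58.3%. With the replicate number as a block, the members called were 0, 7, 8, 5, 7 and 8, as without it. Every group holds the same replicate numbers, so this block leaves the differences as they are and alters only the estimated spread. These counts could therefore hardly change, and they do not test for pairing. Deviations of same-numbered arrays correlated at -0.21 to 0.06, over 0.1 in 0 of 18 pairs. Those of other pairs ran from -0.16 to 0.18. No sign of pairing by number was seen, but an effect that is small or limited to some groups could be missed.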
